A study of Mus musculus with 115 samples.

Results

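Transcripts of 8 genes of cholesterol synthesis and of its feedback control, Hmgcs1, Sqle, Idi1, Fdps, Lss, Cyp51, Insig1 and Insig2, were followed in liver and inguinal fat of gonadectomised mice given testosterone, estradiol or no hormone. The genes were taken by name, with no threshold on their values, although earlier results of these data were known when the list was drawn up. Every probe carrying 1 of the 8 symbols was taken, which gave 14 of the 25697 probes in each table, for 8 of 18120 symbols. Insig1 had 4 probes, Insig2 had 3, Sqle had 2 and each other gene 1. Where a gene had several, the probe with the highest mean signal over both tissues stands for it in counts. All 14 probes passed the filter on dim signal in liver and 12 passed it in fat, where a probe of Insig1 and a probe of Insig2 were each detected in 1 of 55 arrays.

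Cholesterol is built along the mevalonate and sterol branches of a pathway whose enzymes are largely controlled together by transcription. When sterols in the endoplasmic reticulum are low, the escort protein Scap carries Srebp2 to the Golgi, where it is cleaved and freed to raise the genes of synthesis and uptake. Insig1 and Insig2 hold Scap back when sterols are high, and Insig1 is itself a Srebp target. The liver is a main site of synthesis and export, and white fat stores cholesterol.

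Mice of the FCG cross on a C57BL/6J background were used, in which gonad type and sex chromosomes vary independently. In this line Sry, the testis-determining gene, is missing from the Y chromosome (written XY-) and may be carried as a transgene. XX and XY- mice have ovaries; XXSry and XY-Sry mice have testes. Every mouse, controls included, was gonadectomised at 75 days of age and at once given a Silastic capsule that was blank (B), contained 5 mM testosterone (T) or contained 50 µg of estradiol (E). Tissue was taken 3 weeks later. The gonad contrast, groups with Sry minus groups without, thus compares mice that had testes until adulthood with mice that had ovaries, and an effect of the transgene itself cannot be told apart from it. Liver had 12 groups of 5 arrays, 60 in all. Fat had 55 arrays in 12 groups, of which XX B held 3, 3 groups held 4 and the other 8 held 5. The labels do not say that each array is a separate animal, nor link a liver to the fat of the same mouse, so p-values measure the spread between arrays.

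Values are log2 normalised signal, and differences are in log2 units with a standard error. A gene is called when its limma p-value, adjusted by Benjamini-Hochberg over every probe tested in that contrast, is under 0.05. Median raw signals were 124 to 159 for liver arrays and 130 to 230 for fat arrays. All 9 hepatocyte markers were detected in most liver arrays, and all 8 adipocyte markers in most fat arrays. Of the skeletal muscle markers 7 of 8, and of the lymph node markers 8 of 10, were also detected in most fat arrays. The labels carry no replicate numbers, so replicates are numbered here in the order of the samples within a group. Some arrays stood apart or went against a label. Replicate 5 of the livers labelled XY-Sry T had Xist at 6.63 and Eif2s3y, a Y-linked gene, at 4.53. Replicate 5 of the livers labelled XY- E had Hsd3b5, a liver transcript raised by testosterone, at 12.26. That was within the testosterone arrays (11.15 to 12.95) and above every blank array (at most 7.36). XXSry E livers had 8.47 to 11.19 for the same gene. The label fields of fat XX E replicate 1 conflict on its hormone, and its Greb1 signal, which estradiol raised, was 9.22, against 4.54 to 5.96 in testosterone arrays. In fat, XY-Sry T replicate 1 had a mean hepatocyte marker signal of 12.19, against at most 9.43 in the others. Leaving out each of these 4 arrays in turn changed no count of the 8 genes called for testosterone, estradiol or gonad in its own tissue. In bulk tissue, fewer cells of a type and less RNA per cell cannot be told apart.

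Promoters are shown for 3 genes on which the results turn. Hmgcs1 was the 1 gene with a match to the sterol element among the 6 listed genes that had a promoter to search. Both Insig genes are shown because they responded differently. The sequences are the 250 bases before the RefSeq start site on GRCm38.p6, 5′ to 3′ on the gene's strand. Capitals mark the sterol regulatory element TCACNCCAC and the CCAAT box, bound by the Srebp partner NF-Y, on either strand (ATTGG when on the other strand), and the matches did not overlap.
Hmgcs1, chr13:119690101-119690350, plus strand: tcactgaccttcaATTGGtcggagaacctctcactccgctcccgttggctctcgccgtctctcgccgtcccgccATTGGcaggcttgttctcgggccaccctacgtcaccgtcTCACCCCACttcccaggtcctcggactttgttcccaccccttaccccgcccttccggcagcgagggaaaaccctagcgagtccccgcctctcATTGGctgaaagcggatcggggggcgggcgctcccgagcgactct
Insig1, chr5:28071162-28071411, plus strand: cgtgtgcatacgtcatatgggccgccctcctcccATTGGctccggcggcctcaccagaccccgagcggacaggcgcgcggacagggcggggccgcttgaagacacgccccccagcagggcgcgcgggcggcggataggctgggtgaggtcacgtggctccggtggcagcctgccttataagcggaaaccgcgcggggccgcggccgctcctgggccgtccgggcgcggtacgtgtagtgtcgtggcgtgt
Insig2, the most upstream of its 3 listed starts, chr1:121332590-121332839, minus strand: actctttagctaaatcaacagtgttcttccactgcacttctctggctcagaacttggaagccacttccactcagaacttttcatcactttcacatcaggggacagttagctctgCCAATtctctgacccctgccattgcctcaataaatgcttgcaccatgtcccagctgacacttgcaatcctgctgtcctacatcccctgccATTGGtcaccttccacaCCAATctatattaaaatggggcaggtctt
Of the 8 genes, 6 had a promoter in the RefSeq table, with 8 entries in all. Sqle and Fdps had none, so they were not searched. The sterol element was in 1 of the 8 entries, that of Hmgcs1, 137 bases before the start, and in 1.05% of all 32851 promoters. A CCAAT box was in 6 of the 8 entries and in 33.8% of all promoters. The 2 entries without one were the other Insig2 starts, so the Insig2 promoter shown, with 3 matches, is the 1 of its 3 that has any. These are matches of letters, and the tables do not say from which Insig2 start a probe's transcript comes.

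Estradiol raised 6 of the 8 genes in liver and lowered none, where 6.82% of 11317 tested probes were called and 3.55% were called higher. The median difference was 0.57 over the 8 genes and -0.02 over all tested probes. Hmgcs1, which feeds the mevalonate branch, had 12.44 to 14.07 (median 13.57) in the 20 blank arrays and 12.97 to 14.60 (median 14.17) in the 20 estradiol arrays. The arms overlapped, the estradiol arm sitting higher at each of these points, and Hmgcs1 rose by 0.65 ± 0.14 (limma adjusted p = 0.00145). Idi1, which interconverts the isoprene units, had 6.58 to 8.77 (median 8.11) under blank and 5.87 to 9.23 (median 8.47) under estradiol. Its estradiol arm was the wider at both ends, and the difference of 0.48 ± 0.21 was not called (adjusted p = 0.162). Fdps, which joins those units to farnesyl diphosphate, had 11.56 to 13.46 (median 12.98) under blank and 11.15 to 14.11 (median 13.47) under estradiol, a rise of 0.54 ± 0.15 (adjusted p = 0.0214).

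Among the probes that stand for the 8 genes, the largest liver rise was that of Sqle, squalene epoxidase, at the entry to the sterol branch. Its signal was 7.94 to 11.16 (median 9.84) under blank and 8.90 to 12.36 (median 10.99) under estradiol. With overlap, it rose by 1.22 ± 0.22, or 2.33-fold (adjusted p = 0.000109), and its other probe by 1.24 ± 0.24. Lss, which forms lanosterol, had 7.42 to 9.52 (median 9.09) under blank and 7.41 to 10.19 (median 9.56) under estradiol, a rise of 0.53 ± 0.16 (adjusted p = 0.0262). The Lss call was lost without XX B replicate 2 or XY-Sry B replicate 1, with an adjusted p of up to 0.0512. Cyp51, which demethylates lanosterol, had 9.32 to 11.50 (median 10.44) under blank and 8.41 to 12.07 (median 11.08) under estradiol, a rise of 0.68 ± 0.18 (adjusted p = 0.01). Its lowest array of all was an estradiol array.

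The Insig genes gave unlike values. Insig2 had 9.42 to 11.50 (median 10.02) under blank and 10.09 to 12.41 (median 10.61) under estradiol, a rise of 0.59 ± 0.15 (adjusted p = 0.00819). Insig1 had 9.79 to 11.75 (median 10.84) under blank and 9.32 to 11.36 (median 11.07) under estradiol, and its difference of 0.08 ± 0.14 was not called (adjusted p = 0.814). The 3 other Insig1 probes were not called either, the largest difference being 0.12 ± 0.12. The blank and estradiol arms overlapped for all 8 genes.

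**Figure D1:**
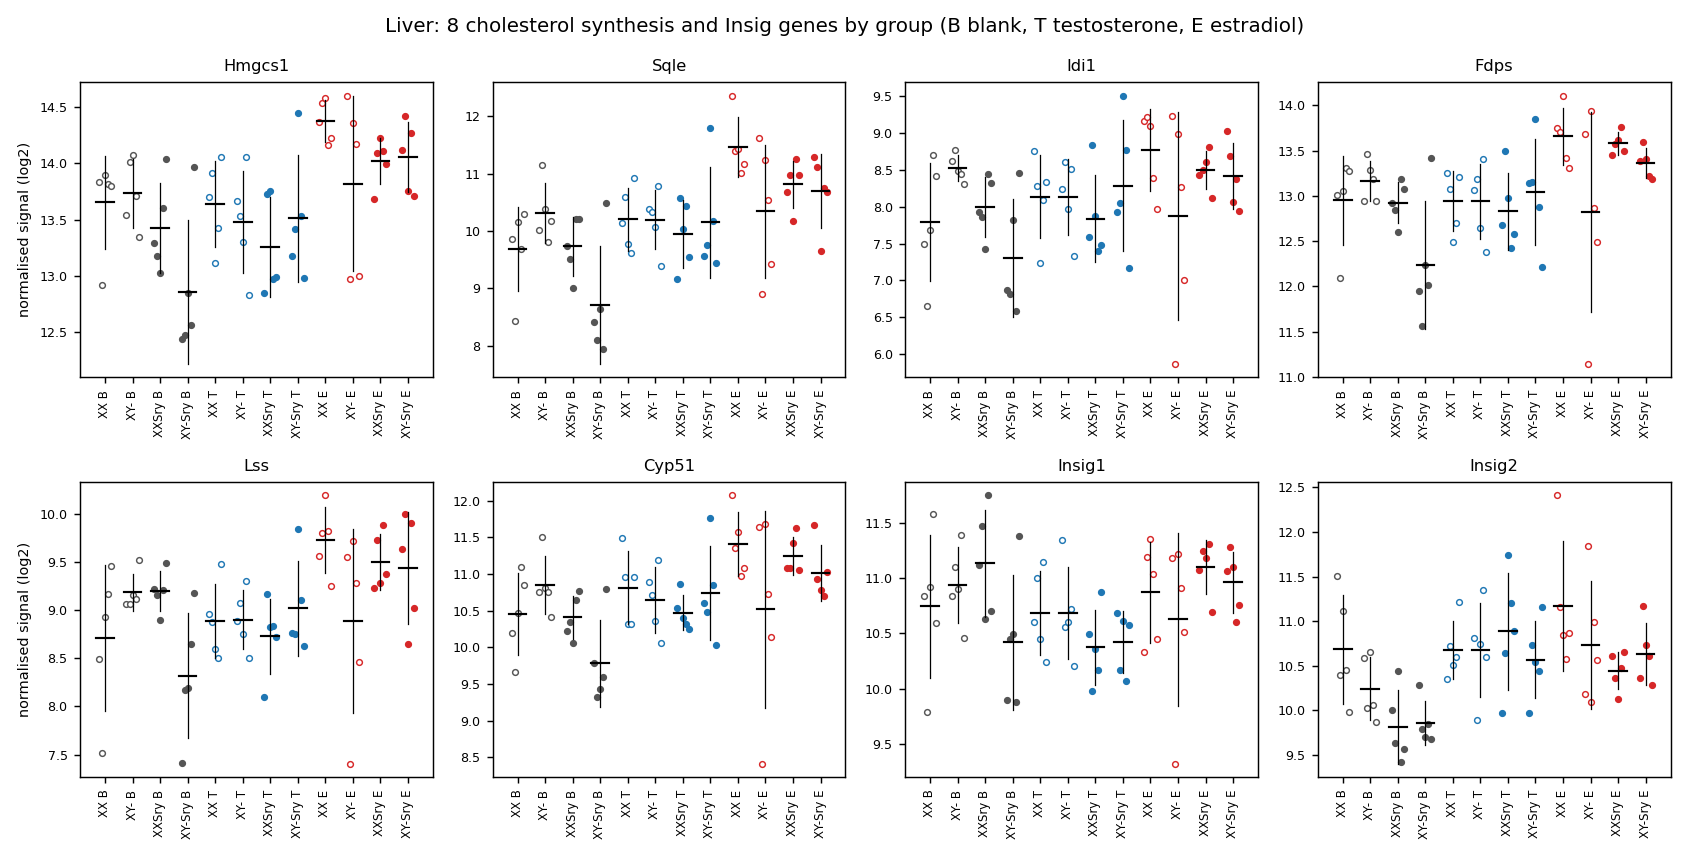
Normalised log2 signal of the 8 genes in each liver array (y axis) by genotype and treatment (x axis, 5 arrays a group). Open points lack Sry and filled points carry it; horizontal bars are group means and vertical bars SD. For Sqle the group means run from 8.71 in XY-Sry B to 11.47 in XX E.

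By genotype, the liver estradiol response of the synthesis genes was positive in XX, XXSry and XY-Sry mice and lay near or below 0 in XY- mice. Sqle had 1.79 ± 0.43 in XX, 1.08 ± 0.43 in XXSry, 1.98 ± 0.43 in XY-Sry and 0.04 ± 0.43 in XY-. Fdps had 0.71, 0.65, 1.12 and -0.34 in the same order. The difference between genotypes was not tested. Within XY- E, Fdps was 13.68, 11.15, 13.94, 12.87 and 12.49 in replicates 1 to 5. Replicate 2 was the lowest of these 5 arrays for all 6 synthesis genes and Insig1, and the highest for Insig2 (11.85). The XY- values above include this array and replicate 5, and an XY- response without them was not estimated separately. With replicates 2 and 5 left out, a choice made after their values were seen, 7 genes were called over all genotypes. Sqle then had 1.42 ± 0.21 and Idi1 0.72 ± 0.18, again over all genotypes. Without replicate 2 alone Idi1 was called as well (adjusted p = 0.0418).

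Among matched genotypes within a slide, Sqle differed by 2.08 on slide 1 and 1.04 on slide 3, and Insig2 by 0.85 and 0.54. With the slide as a block, 5 of the 6 calls for liver estradiol held and Fdps did not (0.50 ± 0.19, adjusted p = 0.0894). Centring each array on its median in place of quantile normalisation moved the median of all tested probes to -0.18, and Hmgcs1 (0.52 ± 0.16) and Sqle (1.02 ± 0.23) were then the 2 genes called. Under that centring 8.55% of all called probes were higher, against 52.1% under quantile normalisation. Macrophage markers moved with estradiol too: of 6 genes 5 were tested and 4 were higher, and their mean signal was 6.57 to 8.16 under blank and 7.06 to 8.32 under estradiol. Their part in the result was not tested. The 9 hepatocyte markers had 12.32 to 12.61 and 12.26 to 12.84.

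Testosterone changed 1 of the 8 genes in liver, where 19.1% of tested probes were called and 8.17% called higher. Insig2 had 9.42 to 11.50 (median 10.02) under blank and 9.89 to 11.74 (median 10.68) in the 20 testosterone arrays. The arms overlapped, and it rose by 0.55 ± 0.15 (adjusted p = 0.00601). By genotype this was -0.01 in XX, 0.44 in XY-, 1.07 in XXSry and 0.71 in XY-Sry. Among matched genotypes within a slide the difference was -0.26 on slide 2, 0.17 on slide 5 and 1.23 on slide 8, so it was not of 1 sign and was by far the largest on slide 8. The call was lost with the slide as a block (0.44 ± 0.17, adjusted p = 0.0583) and under median centring (0.47 ± 0.18, adjusted p = 0.0781). Sqle had 0.51 ± 0.22 and was not called (adjusted p = 0.0868). Without XY-Sry B replicate 5, whose Sqle of 10.49 stood above the rest of its group, it was called (adjusted p = 0.0238). The other 6 genes lay between -0.27 (Insig1) and 0.30 (Cyp51).

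Both hormone contrasts share the same blank arrays, so testosterone was also set directly against estradiol. Testosterone arrays were lower for 4 of the 8 genes, where 18.4% of tested probes were called and 10.6% called lower. These were Hmgcs1 (-0.60 ± 0.14, adjusted p = 0.00106), Sqle (-0.71 ± 0.22, 0.0142), Lss (-0.50 ± 0.16, 0.0164) and Fdps (-0.41 ± 0.15, 0.0485). The Fdps call was lost without any 1 of 40 of the 60 arrays, with an adjusted p of up to 0.098. Cyp51 and the main Insig1 probe had an unadjusted p under 0.05 and were not called, where 3363 of 11317 tested probes passed that level. Another Insig1 probe, ILMN_2895388, was called lower, so the Insig1 probes disagreed. That call was lost without XY-Sry T replicate 1 (-0.30, limma adjusted p = 0.0512). Insig2 had -0.04 ± 0.15 (adjusted p = 0.886).

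For gonad type in liver, 0 of the 8 genes were called by limma, where 3.4% of tested probes were. At an unadjusted p under 0.05 there were 3, all lower with Sry: Hmgcs1 (-0.26 ± 0.11), Sqle (-0.36 ± 0.18) and Insig2 (-0.33 ± 0.12). At that level 1291 of the 11317 tested probes passed. With XY- E replicates 2 and 5 left out, Hmgcs1 was called (-0.35 ± 0.10, adjusted p = 0.0385). Among blank livers Sqle was -1.60 ± 0.43 in XY-Sry against XY- and 0.05 ± 0.43 in XXSry against XX. All 5 tested macrophage markers were lower with Sry, at 6.27 to 7.62 with it and 6.35 to 8.32 without, and their part was not tested. The sex chromosome contrast gave 0 of 8 genes by limma in liver and in fat, where 0.186% and 0.137% of tested probes were called. It also gave 0 at an unadjusted p under 0.05 in both, where 472 of 11317 and 1350 of 14636 probes passed. The interactions of hormone with gonad gave 0 of 8 as well. For these, 0.124% (testosterone) and 0.0795% (estradiol) of tested probes were called in liver, and 0.0137% and 0.813% in fat. At an unadjusted p under 0.05 they gave 1 and 2 genes in liver and 2 and 1 in fat. Of all tested probes, 659 and 622 of 11317 passed that level in liver, and 623 and 861 of 14636 in fat.

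A dimmer Insig2 probe, ILMN_1234858, was called for gonad type, for which the main probe was not. In blank livers it had 6.53 to 9.61 in XX and 6.84 to 8.32 in XY- mice, detected in every array. With Sry it had 4.59 to 6.74 in XXSry, detected in 3 of 5 arrays, and 4.94 to 6.26 in XY-Sry, detected in 1 of 5. All blank arrays without Sry but 1 lay above every blank array with it. Under testosterone the group means were 8.69 in XX, 8.62 in XY-, 9.01 in XXSry and 8.27 in XY-Sry. Under estradiol they were 9.17, 8.05, 8.15 and 8.39. Taken over both hormones together, the group means with Sry lay within the range of those without. Under testosterone alone, XXSry lay above and XY-Sry below both means without Sry.

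On this probe Insig2 rose by 1.91 ± 0.28 with testosterone (adjusted p = 4.09e-07) and by 1.70 ± 0.28 with estradiol (adjusted p = 3.3e-05), and was lower with Sry by 0.96 ± 0.23 (adjusted p = 0.00421). The testosterone response was larger with Sry by 2.51 ± 0.55 (adjusted p = 0.0245). The estradiol response was larger by 2.18 ± 0.55, which was not called (adjusted p = 0.0894). It was called with array weights (2.48 ± 0.51, adjusted p = 0.00893), and without XY- E replicate 2 (adjusted p = 0.0379) or XX B replicate 5 (adjusted p = 0.0484). Signals below detection carry no order, and without background correction the testosterone interaction was 1.30 ± 0.39 (adjusted p = 0.358). With no filter on dim probes its adjusted p was 0.0849. Without both liver arrays that went against a label it was 2.36 ± 0.56 (adjusted p = 0.0629). Leaving out any 1 of 12 arrays also ended the call, at an adjusted p of up to 0.065: XX B 1 and 3, XX T 3, XY- B 3 and 4, XY- T 2, XXSry B 4 and 5, XXSry T 3, 4 and 5, XY-Sry T 5. The other Insig2 probe, ILMN_1216822, rose by 0.77 ± 0.16 with testosterone and 0.69 ± 0.16 with estradiol (adjusted p = 0.000324 and 0.00385). Which transcripts each probe reads is not given in the sources used here.

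**Figure D2:**
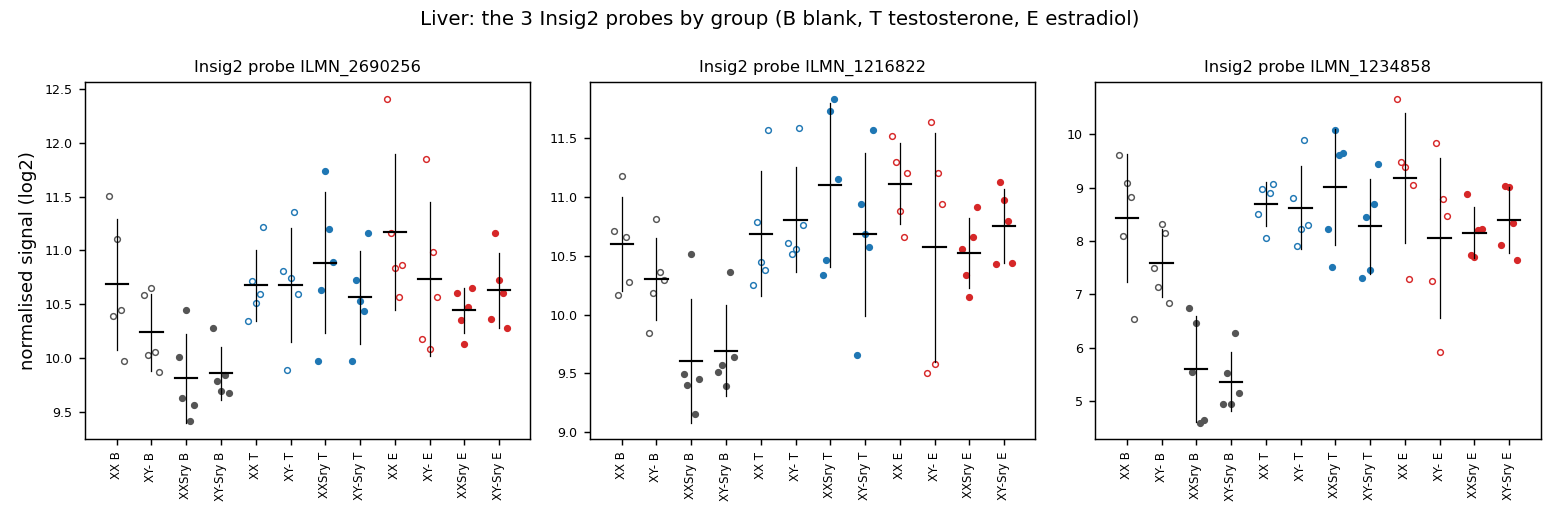
Normalised log2 signal of the 3 Insig2 probes in each liver array (y axis) by genotype and treatment (x axis, 5 arrays a group; open points lack Sry, filled points carry it; bars are mean and SD). For ILMN_1234858 the XXSry B and XY-Sry B points lie at 4.59 to 6.74 and 4.94 to 6.26, below every hormone group's mean.

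In fat, estradiol lowered 4 of the 8 genes and raised none, where 20.5% of 14636 tested probes were called and 10.1% called lower. The median difference was -0.30 over the 8 genes and -0.02 over all tested probes. The largest change was in Insig1, which retains Scap when sterols are high. It had 8.20 to 11.29 (median 9.56) in the 17 blank arrays and 6.06 to 9.32 (median 8.17) in the 19 estradiol arrays. The arms overlapped, the estradiol median lying below the lowest blank array, and Insig1 fell by 1.499 ± 0.30, or 2.83-fold lower (adjusted p = 0.000155). By genotype the difference was -0.96 ± 0.64 in XX, -1.82 ± 0.56 in XY-, -1.48 ± 0.59 in XXSry and -1.73 ± 0.59 in XY-Sry. Its 12 group means ran from 7.82 in XY-Sry E to 9.94 in XXSry B, the 4 estradiol groups being the lowest 4. Each of the 11 steps between neighbours in that order was within the larger SD of the pair.

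**Figure D3:**
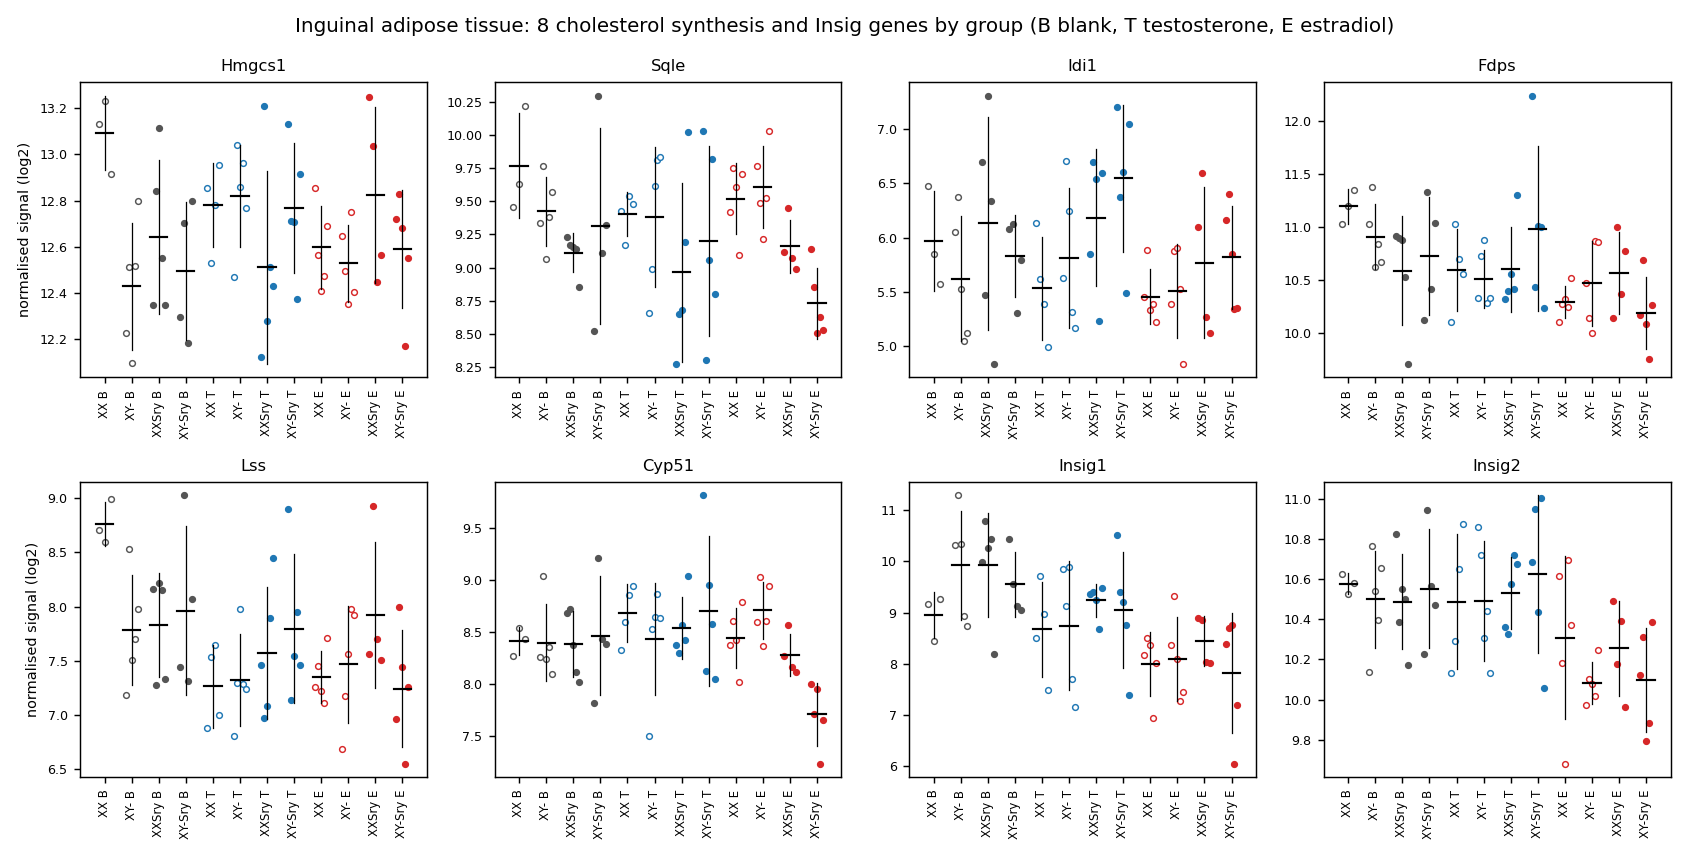
Normalised log2 signal of the 8 genes in each inguinal fat array (y axis) by genotype and treatment (x axis, 3 to 5 arrays a group; open points lack Sry, filled points carry it; bars are mean and SD). Insig1 group means under estradiol lie at 7.82 to 8.45 and under blank at 8.96 to 9.94.

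Insig1 in fat also differed by slide. Over all treatments it was 9.41 ± 0.85 (SD, n = 31 arrays) on slides 1 to 5 and 8.16 ± 0.92 (n = 24) on slides 6 to 8. The first set held 9 blank and 11 estradiol arrays and the second 8 of each. The estradiol difference was -1.55 ± 0.23 in the first set alone and -1.41 ± 0.28 in the second (adjusted p = 0.000167 and 0.00606). It was -1.25 within slide 2, -1.76 within slide 8, and -1.47 ± 0.23 with the slide as a block (adjusted p = 1.04e-05). The fall was thus present in both sets. A second Insig1 probe fell by 1.44 ± 0.27. A further one, ILMN_2895388, was detected in 31 of 31 arrays of slides 1 to 5 (7.64 ± 0.66) and in 0 of 24 of slides 6 to 8 (5.06 ± 0.34). Its estradiol difference of -0.28 ± 0.48 was not called (adjusted p = 0.75). The cause of the split between slides was not tested.

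**Figure D4:**
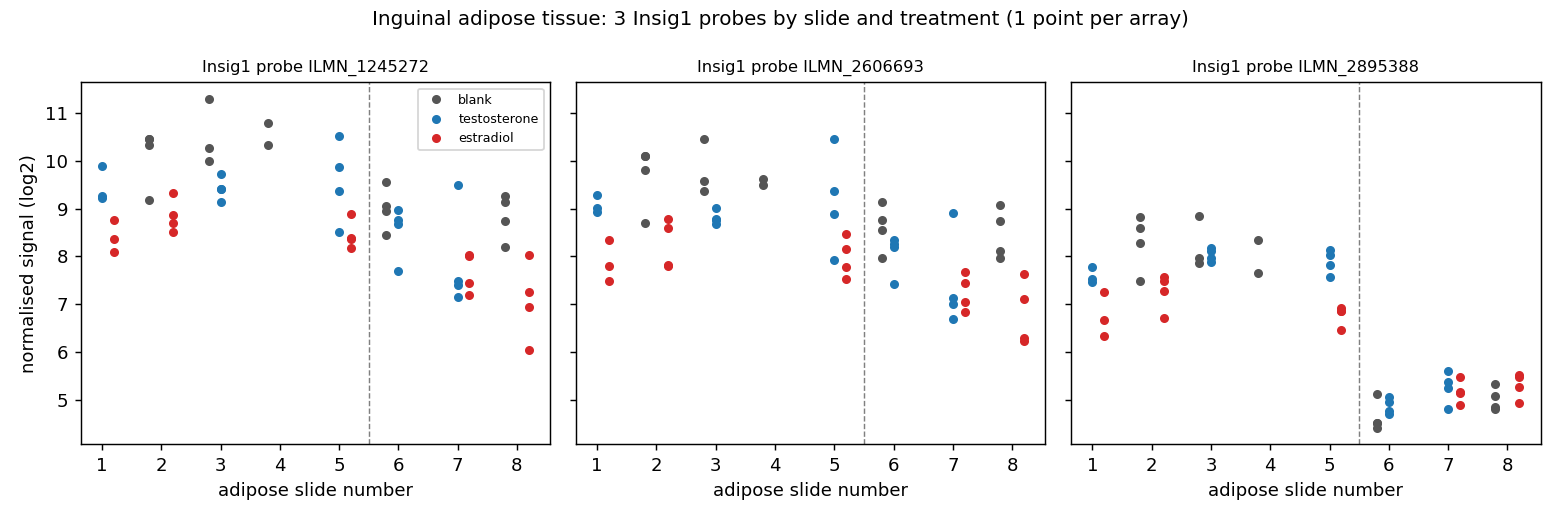
Normalised log2 signal of 3 Insig1 probes in each fat array (y axis) against slide number (x axis), coloured by treatment; the dashed line parts slides 1 to 5 from 6 to 8. In the panel of ILMN_2895388 the arrays of slides 6 to 8 lie at 4.43 to 5.62 and those of slides 1 to 5 at 6.34 to 8.85.

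Fdps, Lss and Insig2 were the other genes that estradiol lowered in fat. Fdps had 9.71 to 11.38 (median 10.90) under blank and 9.75 to 10.999 (median 10.27) under estradiol, a difference of -0.47 ± 0.14 (adjusted p = 0.0133). Lss had 7.19 to 9.02 (median 8.07) under blank and 6.55 to 8.93 (median 7.45) under estradiol, a difference of -0.59 ± 0.18 (adjusted p = 0.013). Insig2 had 10.14 to 10.94 (median 10.54) under blank and 9.68 to 10.70 (median 10.18) under estradiol, a difference of -0.34 ± 0.10 (adjusted p = 0.00724). By genotype Lss had -1.41 in XX, against 3 blank arrays, -0.31 in XY-, 0.09 in XXSry and -0.72 in XY-Sry, so the signs differed. Within slides 2 and 8, Lss differed by -0.06 and -0.57, Fdps by -0.05 and -0.23, and Insig2 by -0.28 and -0.24. The arms overlapped for each, and the other tested Insig2 probe gave -0.05 ± 0.11, so the Insig2 probes disagreed. With the slide as a block Insig1 alone was called, and Fdps had -0.40 ± 0.17 (adjusted p = 0.124), Lss -0.57 ± 0.21 (0.0636) and Insig2 -0.28 ± 0.11 (0.0917). Not called were Hmgcs1 (-0.03 ± 0.10), Sqle (-0.15 ± 0.15), Cyp51 (-0.13 ± 0.13) and Idi1 (-0.25 ± 0.20). Idi1 was dim in fat, detected in 20 of 55 arrays.

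Cell type markers moved with estradiol in the same fat arrays. Of 8 adipocyte markers 4 were lower, with a mean of 10.48 to 12.06 under blank and 10.45 to 11.72 under estradiol. Of 4 tested macrophage markers 3 were higher (5.79 to 6.77 and 6.42 to 7.63), and all 3 tested brown adipocyte markers were lower (7.50 to 10.35 and 6.62 to 8.03). The part of these cells in the results was not tested. Other tissues were mixed into the fat arrays to a varying degree. Mean skeletal muscle signal was 8.33 to 13.62 under blank and 6.02 to 13.68 under estradiol. It was 9.40 to 10.36 in XX B and 12.66 to 13.62 in XY- B. Mean lymph node signal was 5.40 to 10.62 under blank and 5.21 to 10.47 under estradiol. The median estradiol difference was -1.07 over 8 skeletal muscle markers, -0.19 over 10 lymph node markers and -0.20 over 7 tested hepatocyte markers. With the levels of these 3 lists as covariates, Insig1 had -1.62 ± 0.29 (adjusted p = 3.71e-05).

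Testosterone in fat lowered 1 of the 8 genes, Lss, where 4.75% of tested probes were called and 2.59% called lower. Lss had 7.19 to 9.02 (median 8.07) under blank and 6.81 to 8.90 (median 7.46) in the 19 testosterone arrays, with overlap, a difference of -0.60 ± 0.18 (adjusted p = 0.0381). It was -1.498 ± 0.40 in XX, where 3 blank arrays gave the highest group mean (8.76), -0.46 in XY-, -0.26 in XXSry and -0.16 in XY-Sry. The call was lost with the slide as a block (adjusted p = 0.113) and without any 1 of 17 of the 55 arrays (up to 0.0811): XX B 1 and 3, XX T 1 and 4, XY- B 2 and 5, XY- T 1, XXSry B 1, 3 and 4, XXSry T 1 and 3, XY-Sry B 2 and 4, XY-Sry T 2, 3 and 5. Insig1 had -0.66 ± 0.30 and was not called (adjusted p = 0.214).

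Set directly against estradiol, testosterone arrays in fat were higher for 2 of the 8 genes, where 17.3% of tested probes were called and 7.76% called higher. They were Insig1 (0.84 ± 0.29, adjusted p = 0.0359) and Insig2 (0.35 ± 0.09, 0.00583). The Insig1 call was lost without any 1 of 14 arrays, with an adjusted p of up to 0.0759: XX T 2 and 3, XX E 4, XY- T 1, 2 and 3, XY- E 4 and 5, XXSry E 3 and 4, XY-Sry T 1 and 2, XY-Sry E 4 and 5.

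For gonad type in fat, Sqle was the 1 gene of 8 called, where 7.34% of tested probes were called and 4.71% called lower. It had 8.65 to 10.22 (median 9.53) in the 27 arrays without Sry and 8.27 to 10.30 (median 9.09) in the 28 with it. The arms overlapped over most of their range, and Sqle was lower with Sry, -0.44 ± 0.12 (adjusted p = 0.0137), with the same sign in all 6 combinations of treatment and sex chromosomes. Its other probe had -0.52 ± 0.18 and was not called (adjusted p = 0.0669), and under median centring the main probe was not called (-0.45 ± 0.18, adjusted p = 0.184). Of 4 mammary epithelium markers 3 were tested and all 3 were lower with Sry. The mean of the 4 was 4.74 to 7.79 with Sry and 7.39 to 9.07 without, 1 of them being detected nowhere, and their part in the Sqle difference was not tested. Idi1 had 0.40 ± 0.16, which was called with the slide as a block (adjusted p = 0.0405) and not without it (0.141). It was detected in 18 of 31 arrays of slides 1 to 5 and in 2 of 24 of slides 6 to 8, so much of its signal lay below detection.

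The estradiol effect was then compared between tissues, as the liver difference minus the fat difference, in 1 fit of both. The tissues were normalised separately, so differences and not levels are compared. Of the 8 genes 7 were called, all higher in liver, where 9.99% of the 10761 probes tested in both were called and 4.92% called higher in liver. Insig1 had 1.58 ± 0.32 (limma adjusted p = 0.000197), from 0.08 in liver and -1.499 in fat. Sqle had 1.37 ± 0.28 (adjusted p = 0.000156), from 1.22 and -0.15. Fdps (1.01 ± 0.21), Lss (1.12 ± 0.24) and Insig2 (0.94 ± 0.19) were called within each tissue with opposite signs. Hmgcs1 (0.68 ± 0.18) and Cyp51 (0.81 ± 0.23) were called in liver and in the comparison of tissues. Idi1 (0.73 ± 0.30) was not called (adjusted p = 0.104). Under median centring 4 genes were called, and with the slide as a block Hmgcs1 and Cyp51 were not (adjusted p = 0.0945 and 0.0507).

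**Figure D5:**
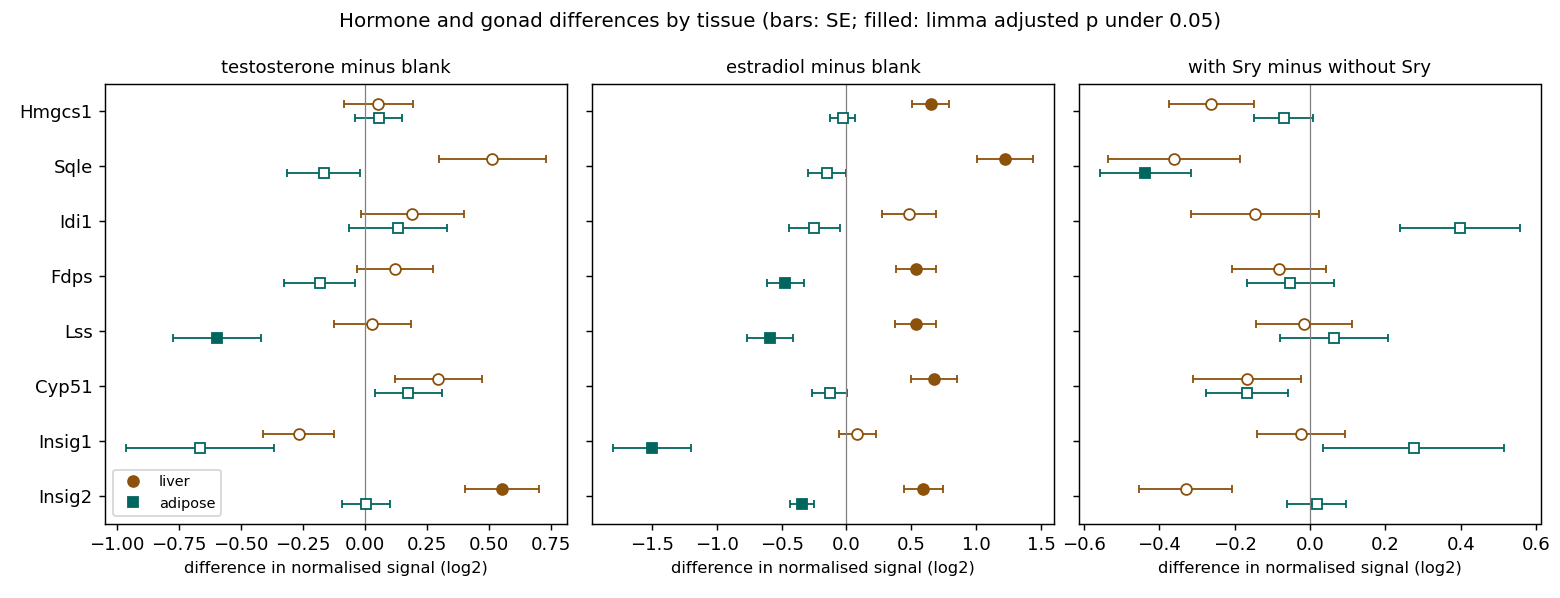
Differences in log2 signal (x axes, bars are standard errors) of the 8 genes (y axis) in liver (brown circles) and fat (green squares), for testosterone minus blank, estradiol minus blank, and with Sry minus without. Filled marks have a limma adjusted p under 0.05. Under estradiol each liver mark lies right of the fat mark of its gene, as for Insig1 at 0.08 and -1.499.

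For testosterone and gonad type the tissues gave 0 of 8 genes by limma, where 7.27% and 4.27% of probes were called. At an unadjusted p under 0.05 testosterone gave 3, Sqle (0.68 ± 0.28), Lss (0.63 ± 0.24) and Insig2 (0.55 ± 0.19), all higher in liver. Gonad type gave 2, Idi1 (-0.54 ± 0.24) and Insig2 (-0.35 ± 0.15), both lower in liver. Of the 10761 probes tested in both tissues, 2212 passed that unadjusted level for testosterone and 1583 for gonad type. Insig2 under testosterone (adjusted p = 0.055) was called without any 1 of 20 of the 115 arrays.

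Across arrays the 6 synthesis genes varied together in liver. On residuals from group means over 60 arrays, their 15 pairs had Pearson r of 0.715 to 0.90, and all 15 had a permutation p, adjusted by Benjamini-Hochberg over 28 pairs, under 0.05. Fdps and Cyp51 had r = 0.90 and Spearman rho = 0.837 (permutation p = 1e-05 for both, the smallest that 100000 resamples give), r = 0.855 without the 2 arrays farthest from the median of Fdps, and r = 0.92 within slides. With the same 6 genes Insig1 had r of 0.395 to 0.607 (6 of 6 pairs with an adjusted permutation p under 0.05, and 5 of 6 by Spearman), and Insig2 had -0.297 to -0.026 (3 of 6, and 0 of 6 by Spearman). Without the 2 arrays farthest from the median of the synthesis gene, the Insig2 values shrank to -0.156 to -0.00396, so that relation rests on those arrays. In fat the 15 pairs had r of 0.0113 to 0.743 over 55 arrays, 10 with an adjusted permutation p under 0.05, and 0.197 to 0.818 within slides. The highest were Sqle with Cyp51 (0.743) and Fdps with Lss (0.734). Spearman rho of the 15 pairs was -0.0374 to 0.677. Without the 2 arrays farthest from the median of 1 gene of the pair, r was -0.0648 to 0.707. The 55 arrays include XY-Sry T replicate 1, with its high hepatocyte signal, and its part in the fat correlations was not tested. All pairs share arrays, and so RNA quality and slide.

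The group levels in liver had a common order at its ends: all 6 synthesis genes were lowest in XY-Sry B and highest in XX E. Hmgcs1 went from 12.86 ± 0.64 (SD, n = 5) to 14.37 ± 0.18 and Cyp51 from 9.78 ± 0.59 to 11.41 ± 0.44. Of the 11 steps between neighbouring groups, 10 or 11 were within the larger SD for each of these genes. Insig1 was highest in XXSry B (11.14 ± 0.48) and lowest in XXSry T (10.37 ± 0.34).

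Of 12 other enzymes of cholesterol synthesis 11 were tested in each tissue. Estradiol raised 3 of 11 in liver, where 3.55% of all tested probes were called higher, with a median of 0.37: Mvd (0.94 ± 0.23), which makes isopentenyl diphosphate, and the sterol enzymes Nsdhl (0.66 ± 0.19) and Hsd17b7 (0.43 ± 0.14). It lowered 5 of 11 in fat, where 10.1% of all tested probes were called lower, with a median of -0.33: Acat2 (-0.91 ± 0.14), which joins acetyl-CoA units, the kinase Pmvk (-0.70 ± 0.14), and the sterol enzymes Dhcr7 (-0.55 ± 0.17), Sc5d (-0.52 ± 0.18) and Hsd17b7 (-0.47 ± 0.11). Among the 11 tested in each tissue, testosterone raised Nsdhl in liver (0.53 ± 0.19), where 8.17% of all tested probes were called higher. It lowered Dhcr7 in fat (-0.62 ± 0.17), where 2.59% were called lower. Neither single gene is a result about the list. Of 12 regulators and targets of Srebp outside synthesis, 8 were tested in liver. Testosterone lowered 2 of them there, Srebf1 (-0.74 ± 0.17), which drives fatty acid synthesis, and Npc2 (-0.40 ± 0.09), which exports lysosomal cholesterol. Of all 11317 tested probes, 1237 were called lower for testosterone in liver, and 19.1% were called in either direction. With 8 genes tested, the count is no result about the list.

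By Pearson r of the signal over the 60 liver arrays, the gene outside the 8 most like Hmgcs1 was Mvd (0.886). Again outside the 8, Hsd17b7 was the nearest to Fdps (0.893), Idi1 (0.89) and Sqle (0.822), and Nsdhl the nearest to Cyp51 (0.89). For all 5 of these, another of the 8 was nearer, with a highest r of 0.894 for Hmgcs1 and Sqle, 0.905 for Idi1 and 0.928 for Fdps and Cyp51. The outside genes nearest to Insig1 and Insig2 were Paox (0.775) and Lrfn3 (0.841). Over the 55 fat arrays the outside gene nearest to Lss was Pmvk (0.849) and that nearest to Insig1 was Acin1 (0.804). The nearest to Sqle in fat was 1300007L22Rik (0.745), followed by Grb7 (0.709). Of the 10 nearest outside genes in liver, 4 to 7 were in the synthesis or Srebp lists for each synthesis gene. In fat 2 were for Fdps and for Lss, and 0 for Hmgcs1, Sqle, Idi1, Cyp51, Insig1 and Insig2.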

How the data were processed

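RNA of 60 livers and 55 inguinal fat samples was measured on 1-colour Illumina bead arrays. The authors deposited, for each tissue, a table of probe intensity values without normalisation and detection p-values, per the file headers; the submitters' processing notes name lumi, with no version. The 115 columns of bead standard errors were not used. Background was corrected by normexp with controls inferred from the detection p-values (limma 3.58.1 neqc, R 4.3.3, offset 16), arrays were quantile normalised within a tissue, and values were taken to log2, which understates the change of dim probes. Probes needed a detection p under 0.01 in 5 liver or 3 fat arrays, which kept 11317 and 14636, of which 10761 were in both. A limma model of 12 group means per tissue, or 24 over both, was fitted on all probes, with Benjamini-Hochberg adjustment and a threshold of 0.05. The script was tested on simulated data. By the rule for names, any probe of the 8 genes, any called gene of the pathway lists, the genes nearest by correlation and those of the label checks are named, and some results of the lists are not reported here. The members and gene lists were chosen with earlier results of these data known. Alternatives tried were median centring, no background correction, other filters, slide as a block, array weights, marker covariates and left-out arrays.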

Additional observations from a re-analysis of the deposited data

Results flagged for a closer look

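In 12 of 184 groups of 4 or 5 arrays, the highest or lowest array stood far from the others by a criterion that marks about 1 group in 20 by chance. In liver, XX B replicate 2 was low, with 12.09 for Fdps (nearest array of its group 13.01) and 12.92 for Hmgcs1 (nearest array of its group 13.80). XY-Sry B replicate 5 was high, with 13.97 for Hmgcs1 (nearest array of its group 12.85) and 10.49 for Sqle (nearest array of its group 8.63). XY-Sry B replicate 1 had 10.28 for Insig2 (nearest array of its group 9.84), and XY- B replicate 5 had 9.52 for Lss (nearest array of its group 9.16). In fat, XY- B replicate 2 had 9.04 for Cyp51 (nearest array of its group 8.35) and XY- T replicate 1 had 7.50 for Cyp51 (nearest array of its group 8.53). XXSry T replicate 5 had 11.30 for Fdps (nearest array of its group 10.56) and XXSry T replicate 4 had 8.67 for Insig1 (nearest array of its group 9.25). XXSry E replicate 2 had 8.93 for Lss (nearest array of its group 7.70) and XXSry B replicate 5 had 8.86 for Sqle (nearest array of its group 9.14).

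The estradiol effect differed between liver and fat by the tested contrast, liver minus fat, for 7 genes: Hmgcs1 by 0.68, Sqle by 1.37, Fdps by 1.01, Lss by 1.12, Cyp51 by 0.81, Insig1 by 1.58 and Insig2 by 0.94. The liver testosterone response of the Insig2 probe ILMN_1234858 differed between mice with and without Sry by 2.51.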

How the results depend on the processing

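No result of the 8 genes changed direction while called under any alternative run, and counts below are of the 8 genes called. Under median centring they were 0 for liver testosterone, 2 for liver estradiol and 1 for liver testosterone minus estradiol; in fat 0 for testosterone, 2 for estradiol, 0 for gonad and 1 for testosterone minus estradiol; and 4 for estradiol between tissues. With the slide as a block they were 2 for liver testosterone minus estradiol and, in fat, 0 for testosterone, 1 for estradiol, 2 for gonad and 1 for testosterone minus estradiol. With array weights they were 2 for liver testosterone, in fat 0 for testosterone, 2 for gonad and 4 for testosterone minus estradiol, and 1 for testosterone between tissues. With no filter on dim probes, fat testosterone gave 0 and fat testosterone minus estradiol 1, and a stricter filter gave 1 for testosterone between tissues. Other-tissue marker levels as covariates gave 1 for fat testosterone minus estradiol. Chosen after seeing the data, leaving out liver XY- E replicates 2 and 5 gave 1 for liver gonad and 7 for liver testosterone minus estradiol. Also chosen then, fat slides 1 to 5 alone gave 0 for testosterone, 1 for estradiol, 0 for gonad and 1 for testosterone minus estradiol, and slides 6 to 8 alone 0, 1, 0 and 0. The cause of these moves was not tested, except that fewer arrays enter the slide subsets.

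Leaving out 1 array at a time gave 1 to 2 genes for liver testosterone, 5 to 7 for liver estradiol, 3 to 6 for liver testosterone minus estradiol, 0 to 1 for fat testosterone, 4 to 4 for fat estradiol, 1 to 1 for fat gonad, 1 to 3 for fat testosterone minus estradiol, 0 to 1 for testosterone between tissues and 7 to 8 for estradiol between tissues. Median centring moved the share of called probes that were higher from 42.8% to 16.5% for liver testosterone, from 35.8% to 23.4% for fat gonad and from 49.2% to 16.8% for estradiol between tissues. No paired analysis was possible because the labels carry no replicate numbers. No slide held all 3 treatments, so hormone and slide are partly confounded, and signals near background, such as Idi1 in fat, bound what a difference can show. The number of arrays limits the precision.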

Other observations

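Genes of cholesterol efflux, esterification and their control by liver X receptors were a further list of 10, with 8 tested in liver and 10 in fat. In fat, estradiol raised Soat1, which esterifies cholesterol in cells, by 1.19 ± 0.24 and lowered Nr1h3, which encodes a liver X receptor (-0.29 ± 0.08). Nr1h3 was higher in fat with Sry, by 0.37 ± 0.06. In liver, testosterone lowered Lcat, which esterifies cholesterol in plasma (-0.22 ± 0.07). These were the only genes of the list called by limma for testosterone, estradiol or gonad in either tissue. The 2 of 10 called for estradiol in fat are close to the 20.5% of all tested probes called, so the count says nothing particular of the list. Of 8 adipocyte markers in fat, 3 were also higher with Sry, where 385 of 14636 tested probes were called higher. Their part in the Nr1h3 difference was not tested.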
